A study of Mus musculus with 12 samples.

Results

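The transcripts of 10 serotonin receptor genes were followed in the hippocampus of 3 mouse strains. The genes were Htr1a, Htr1b, Htr2a, Htr2c, Htr3a, Htr4, Htr5a, Htr5b, Htr6 and Htr7. They were chosen by name among the 29608 genes of the arrays, and 16 probes carried one of these names. Hippocampal RNA of 12 adult female mice was analysed, with 4 mice per strain and each mouse profiled on its own. MRL/lpr mice carry the lpr mutation of Fas, a death receptor of lymphocytes, and serve as a model of lupus. Mice labelled Fn14koMRL were bred as littermates of MRL/lpr mice, and the paper names them MRL/lpr Fn14 knock-out mice, thus on the lpr background. They are described as lacking Tnfrsf12a, which encodes Fn14, the receptor of the cytokine TWEAK. MRL/MpJ mice have an intact Fas gene and came from another breeder. The comparison of the strains asks which receptor transcripts differ with the disease background and with the loss of Fn14.

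Serotonin reaches the hippocampus through fibres of the raphe nuclei of the brainstem, and its action there depends on which receptors a neuron carries. The 5-HT1 and 5-HT5 receptors couple to Gi/o proteins and dampen activity, the 5-HT2 receptors couple to Gq and raise intracellular calcium, and 5-HT4, 5-HT6 and 5-HT7 couple to Gs and raise cyclic AMP. The 5-HT3 receptor is a cation channel, found in the forebrain mainly on interneurons.

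Each array held 2 mice of 1 strain, replicates 1 and 3 in the Cy3 channel and replicates 2 and 4 in the Cy5 channel. Each strain occupied 1 slide of its own, so slide and strain cannot be told apart, and in comparisons with MRL/MpJ neither can breeder and strain. A level is the background-subtracted intensity of a gene divided by the median of its channel, taken over the 10877 spots valid in all 12 samples. Before this scaling the channel median was 4540, 1710, 170 and 74.7 intensity units in MRL/lpr replicates 1 to 4. It was 4380, 3380, 3580 and 2130 in Fn14koMRL and 3680, 684, 3630 and 942 in MRL/MpJ. The array of MRL/lpr replicates 3 and 4 was thus the dimmest, and 25.2% and 19.6% of its spots were well above background by the scanner software. That share was 66.0% and 60.8% in the other two MRL/lpr mice, 51.5% to 68.1% in Fn14koMRL, and 67.5%, 29.6%, 66.2% and 31.8% in MRL/MpJ. Comparisons were therefore made with all 12 samples and with the 10 samples outside this array. The 10-sample comparison was scaled anew, by the median over the 25621 spots valid in those samples, with the floor at 1% of that median. Levels are printed on the 12-sample scale unless stated.

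Dim probes carry an offset that differs between channels. The median of the negative-control spots, on the same relative scale, was 0.0721 and 0.341 in MRL/lpr replicates 3 and 4, and 0.255 and 0.187 in MRL/MpJ replicates 2 and 4. It was at most 0.0275 in the other 8 samples. With values at the floor of 1% counted at 0.01, the 10 receptors lay above this median in MRL/lpr replicate 1, Fn14koMRL replicates 1 and 3 and MRL/MpJ replicates 1 and 3. In MRL/MpJ replicates 2 and 4 this held for 1 receptor, Htr3a, and in MRL/lpr replicate 4 for 4 receptors. Receptor levels below the negative controls are therefore no evidence of transcript, and for some receptors differences are also given within the Cy3 channel.

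Tnfrsf12a checks the labels of the knockout. Mice labelled Fn14koMRL had levels of 0.177, 0.160, 0.189 and 0.151 in replicates 1 to 4. MRL/lpr mice had 0.439, 0.307, 0.241 and 0.247, and MRL/MpJ mice 0.283, 0.629, 0.503 and 0.502. The 4 mice labelled Fn14koMRL lay below the other 8, yet the probe was well above background in 4 of 4 of them. It was not so in MRL/lpr replicates 3 and 4, and the reading of 0.247 in replicate 4 lies below the negative controls of its channel, 0.341. Where the probe lies relative to the deleted part was not analysed here, so the labels are kept as given. The log2 fold change of Fn14koMRL against MRL/MpJ was −1.45 ± 0.32 (standard error, limma adjusted p = 0.0930) with 12 samples and −1.20 (adjusted p = 0.00256) with 10. For MRL/lpr against Fn14koMRL it was 0.83 ± 0.32 (adjusted p = 0.125) and 1.04 (adjusted p = 0.0166), and it turned negative under 2 of the alternative treatments. MRL/lpr against MRL/MpJ gave −0.62 ± 0.32 (adjusted p = 0.320).

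Fas was dim throughout. Its level was 0.0384, 0.0281, 0.0538 and 0.253 in MRL/lpr, 0.0467, 0.0415, 0.0571 and 0.0563 in Fn14koMRL, and 0.0983, 0.226, 0.0487 and 0.213 in MRL/MpJ. It was well above background in 1, 4 and 2 of 4 mice of these strains. MRL/lpr against MRL/MpJ gave a log2 fold change of −0.99 ± 0.67 (limma adjusted p = 0.527), or −1.74 (adjusted p = 0.0203) with 10 samples. MRL/lpr against Fn14koMRL gave 0.31 ± 0.67 (adjusted p = 0.702) and turned to −0.69 with 10 samples. Fn14koMRL against MRL/MpJ gave −1.30 ± 0.67 (adjusted p = 0.422), and the direction of each of these 3 Fas comparisons turned under at least 1 alternative treatment.

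The tissue label also needs care, since the sample descriptions name cortex where source and tissue fields name hippocampus. Several markers of the dentate gyrus, a part of the hippocampus, were higher in MRL/lpr. Prox1, the transcription factor of granule cells, stood at 0.177, 0.157, 1.08 and 1.60 in MRL/lpr and at 0.0190, 0.0185, 0.01 and 0.0237 in Fn14koMRL. In MRL/MpJ it was 0.0200, 0.125, 0.0188 and 0.0911, below the negative controls in the Cy5 channel. Lamp5, a gene of upper cortical layers and some interneurons, ran the other way. MRL/lpr mice had 0.503, 0.569, 0.357 and 0.539, Fn14koMRL mice 1.66, 3.16, 3.35 and 3.44 and MRL/MpJ mice 3.63, 5.40, 4.30 and 5.00. The strains thus differ in markers of brain regions, and in bulk tissue fewer cells of a type and less RNA per cell cannot be told apart.

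Across the receptors, MRL/lpr and Fn14koMRL mice differed in 1 gene and the other two comparisons in none when all 12 samples were fitted. By limma, MRL/lpr against MRL/MpJ had 0 of 10 receptors past an adjusted p of 0.05, where 2.59% of all genes passed, and 2 at an unadjusted p under 0.05, Htr1a and Htr2c, where 18.6% of all genes did. MRL/lpr against Fn14koMRL had 1 of 10, Htr1a, where 6.01% of all genes passed, and 5 unadjusted, Htr1a, Htr3a, Htr4, Htr5b and Htr6, beside 27.7%. Fn14koMRL against MRL/MpJ had 0 of 10, where 0.142% passed, and 2 unadjusted, Htr1a and Htr3a, beside 8.52%. The methods' t-test called 0, 2 and 2 receptors unadjusted, beside 7.70%, 7.32% and 7.82% of all genes, and 0 in each comparison adjusted, beside 0%, 0% and 0.0135%. With 10 samples the counts were 3, 2 and 5 of 10 receptors, beside 11.4%, 8.54% and 13.9% of all genes, and they became 1, 1 and 0 with the negative-control median as background, an alternative chosen after seeing the data, beside 11.7%, 7.08% and 0.189%. The receptor called there was Htr4 in both, which had not passed with the local background. Leaving out MRL/lpr replicate 2 gave 2, 7 and 0 receptors, beside 13.1%, 69.1% and 0.317% of all genes. Without overlap between the strains stood 0, 3 and 3 receptors with 12 samples, beside 7.65%, 17.4% and 10.6% of all genes, and 5, 6 and 3 with 10 samples, beside 22.5%, 27.6% and 11.4%. On the 12-sample scale the same 10 samples gave 3, 6 and 3, beside 19.3%, 27.6% and 10.6%.

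Fold changes of the receptors stand beside a shift of all genes. With 12 samples the median log2 fold change of the 10 receptors was 0.57 for MRL/lpr against MRL/MpJ, 1.24 for MRL/lpr against Fn14koMRL and −1.31 for Fn14koMRL against MRL/MpJ. The medians of all genes were 0.20, 1.33 and −0.97, so a fold change is read against that shift. With 10 samples the receptors had medians of −0.29, −0.23 and −0.96, and all genes −0.49, −0.05 and −0.69. The 3 comparisons share samples and are not independent. The smallest two-sided p that the exact permutation test can give is 0.0286 for 4 mice against 4 and 0.133 for 2 against 4. That test moves single mice and takes no account of the 2 mice on each array. Their correlation, fitted with array as a random block, was 0.568, so its p does not measure the spread between arrays.

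**Figure D1:**
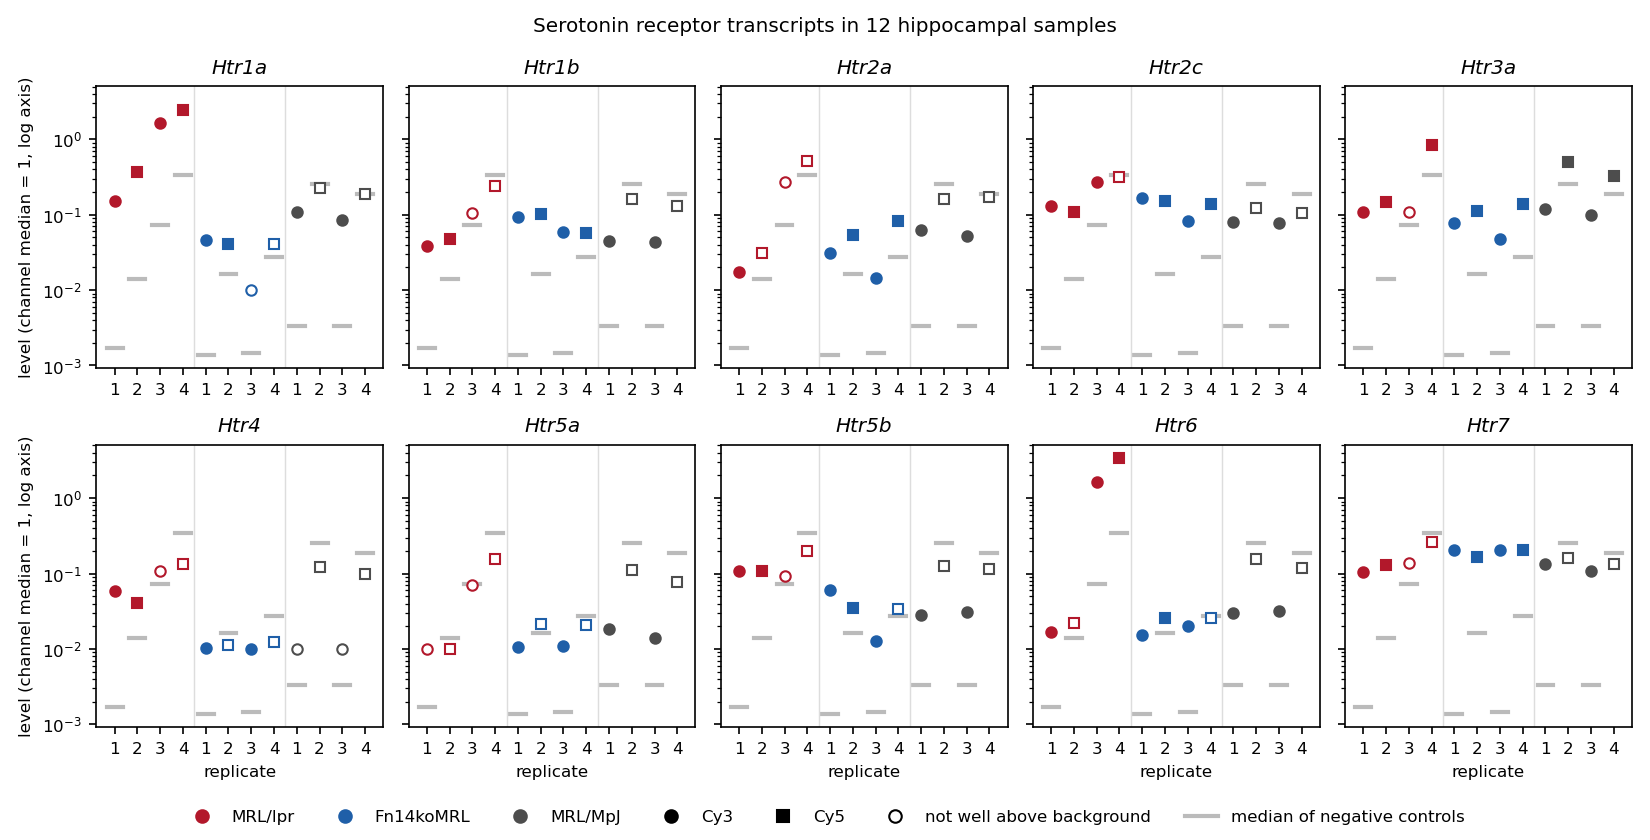
Level of the 10 receptor genes in each of the 12 samples, in units of the channel median on a log axis, by replicate within strain (colour), with circles for Cy3, squares for Cy5 and open symbols for probes not well above background. Grey bars mark the median of the negative controls, which lies above most receptors in MRL/MpJ replicates 2 and 4 and in MRL/lpr replicate 4.

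Among the Gi/o-coupled receptors, Htr1a stood highest in MRL/lpr and lowest in Fn14koMRL. Htr1a encodes the inhibitory autoreceptor of raphe neurons, which in the hippocampus sits on pyramidal and granule cells. Its level was 0.154, 0.366, 1.62 and 2.46 in MRL/lpr replicates 1 to 4. It was 0.0461, 0.0413, 0.01 and 0.0409 in Fn14koMRL, and 0.109, 0.227, 0.0860 and 0.186 in MRL/MpJ. Replicates 3 and 4 of MRL/lpr were the highest of the 12 samples, and the 4 Fn14koMRL samples lay below the other 8. The probe was well above background in 4 of 4 MRL/lpr samples and in 2 of 4 of each other strain. Cy5 readings of MRL/MpJ lie below their negative controls.

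MRL/lpr exceeded Fn14koMRL in Htr1a by a log2 fold change of 4.54 ± 0.73 (limma adjusted p = 0.00689, exact permutation p = 0.0286). Without the dim array it was 3.03 ± 0.52 (limma adjusted p = 0.00187), with 2 mice against 4. Within the Cy3 channel the 12-sample difference was 4.54 and within Cy5 4.53. With the negative-control background the value was 5.28 but the adjusted p was 0.10. Without the dim array it was 3.71 (adjusted p = 0.363), and quantile normalization gave 3.10 (adjusted p = 0.0499). The methods' t-test gave 5.06 with an unadjusted p of 0.132. For Fn14koMRL against MRL/MpJ the log2 fold change was −2.25 ± 0.73 (limma adjusted p = 0.286, exact permutation p = 0.0286) with 12 samples. It was −2.12 ± 0.42 (limma adjusted p = 0.00603) with 10, and 0.17 with the negative-control background and 10 samples. MRL/lpr and MRL/MpJ overlapped.

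Htr1b encodes the terminal autoreceptor that limits transmitter release. Its level was 0.0381, 0.0471, 0.104 and 0.241 in MRL/lpr, 0.0932, 0.102, 0.0584 and 0.0565 in Fn14koMRL and 0.0453, 0.163, 0.0428 and 0.129 in MRL/MpJ. The strains overlapped with 12 samples, and MRL/lpr against Fn14koMRL gave a log2 fold change of 0.13 ± 0.62 (limma adjusted p = 0.864). Without the dim array both MRL/lpr mice lay below the 4 Fn14koMRL mice, at −0.91 ± 0.40 (limma adjusted p = 0.230). The direction of the gene value, averaged over its probes, thus turned with that array. The probe well above background in 8 of 12 samples did not turn. On the 12-sample scale it gave −0.16, and −0.82 without the array. The other probe, well above background in 1 of 12 samples, gave 1.34 and −0.40.

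Htr5a and Htr5b encode the 2 receptors of the 5-HT5 class, of which the second is not functional in humans. Htr5a was not well above background in any of the 4 MRL/lpr samples, at 0.01, 0.01, 0.0704 and 0.155. It was 0.0106, 0.0211, 0.0110 and 0.0209 in Fn14koMRL and 0.0185, 0.113, 0.0139 and 0.0773 in MRL/MpJ. With 10 samples MRL/lpr against MRL/MpJ had a limma adjusted p of 0.0285, with the fitted MRL/lpr mean lower, and 0.269 with the negative-control background. Against Fn14koMRL the adjusted p was 0.434. No fold or direction is read from these values, since no MRL/lpr reading was well above background and both MRL/MpJ Cy5 readings lie below their negative controls.

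Htr5b read higher in the MRL/lpr mice than in the Fn14koMRL mice, short of the threshold in both fits. Its level was 0.109, 0.108, 0.0938 and 0.200 in MRL/lpr, 0.0609, 0.0348, 0.0128 and 0.0342 in Fn14koMRL and 0.0283, 0.124, 0.0311 and 0.115 in MRL/MpJ. The 4 MRL/lpr samples lay above the 4 Fn14koMRL samples. The log2 fold change was 1.97 ± 0.63 (limma adjusted p = 0.0767, exact permutation p = 0.0286) and 1.72 ± 0.55 (limma adjusted p = 0.0689) with 10 samples, so neither passed. Medians of all genes were 1.33 and −0.05, and array as a random block gave a limma adjusted p of 0.327 with 12 samples. The processed signal gave 2.53 (limma adjusted p = 0.0278), the negative-control background 0.87 (adjusted p = 0.499) and quantile normalization −0.03. The readings of MRL/lpr replicates 3 and 4 were not well above background, and that of replicate 4 lies below its negative controls. Against MRL/MpJ it was 1.03 ± 0.63 (limma adjusted p = 0.442), and with 10 samples 1.03 ± 0.55 (adjusted p = 0.175). On the scale of that fit MRL/lpr stood at 0.410 and 0.407 and MRL/MpJ at 0.109, 0.338, 0.123 and 0.356, without overlap. The same mice overlap on the 12-sample scale. Within Cy3 the differences against MRL/MpJ were 1.77 with 12 samples and 1.83 with 10, and within Cy5 0.30 and 0.23. Both MRL/MpJ Cy5 readings lie below their negative controls. With the negative-control background and 10 samples the difference was 3.60 (limma adjusted p = 0.0633).

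Of the Gq-coupled receptors, Htr2a, the receptor through which classical hallucinogens act, stood at 0.0175, 0.0306, 0.271 and 0.520 in MRL/lpr. It was 0.0309, 0.0536, 0.0145 and 0.0828 in Fn14koMRL and 0.0635, 0.160, 0.0522 and 0.170 in MRL/MpJ. The 2 high readings of MRL/lpr come from the dim array and were not well above background. Cy5 readings of MRL/MpJ lie below their negative controls. With 12 samples MRL/lpr against MRL/MpJ gave −0.07 ± 0.91 (limma adjusted p = 1.00), and without the array −1.91 ± 0.42 (adjusted p = 0.00889). Within Cy3 the latter difference was −1.77, from 1 MRL/lpr mouse against 2. The sign became positive with the negative-control background, at 0.46 without the array. Fn14koMRL against MRL/MpJ gave −1.37 ± 0.91 (limma adjusted p = 0.422) and −1.12 ± 0.34 (adjusted p = 0.0406) with 10 samples, with overlapping groups, and became 1.41 with the negative-control background and 10 samples.

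Htr2c, which is strongly expressed in choroid plexus as well as in neurons, had levels of 0.130, 0.107, 0.272 and 0.316 in MRL/lpr. They were 0.164, 0.154, 0.0814 and 0.139 in Fn14koMRL and 0.0791, 0.124, 0.0775 and 0.106 in MRL/MpJ. MRL/lpr against MRL/MpJ gave a log2 fold change of 0.97 ± 0.44 (limma adjusted p = 0.250), and 0.48 ± 0.30 (adjusted p = 0.232) with 10 samples. On the scale of that fit MRL/lpr stood at 0.490 and 0.405 and MRL/MpJ at 0.304, 0.338, 0.306 and 0.329, without overlap, whereas the same mice overlap on the 12-sample scale. Within Cy3 these differences were 1.26 and 0.68. Spots kept by the methods' filter gave 1.34 (limma adjusted p = 0.0379), and 1.11 (adjusted p = 0.0550) without the dim array. On the 12-sample scale the probe well above background in 9 of 12 samples gave 1.34, and 0.94 without the array. The probes so in 2 and 4 of 12 gave 0.24 and 0.46, and −1.42 and −1.29 without it, so the probes disagreed in direction there. Cy5 readings of the gene in MRL/MpJ lie below their negative controls.

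Htr3a, the channel subunit, was the one receptor well above background in all 10 samples outside the dim array. Its level was 0.110, 0.146, 0.108 and 0.840 in MRL/lpr, 0.0786, 0.111, 0.0481 and 0.138 in Fn14koMRL and 0.120, 0.503, 0.0994 and 0.323 in MRL/MpJ. MRL/MpJ readings were higher in Cy5 than in Cy3, as were the negative controls of these channels. Fn14koMRL against MRL/MpJ gave −1.27 ± 0.49 (limma adjusted p = 0.422) with 12 samples and −1.01 ± 0.25 (adjusted p = 0.0170) with 10, beside medians of all genes of −0.97 and −0.69. Within Cy3 the 10-sample difference was −0.78, and with the negative-control background it was −1.25 (adjusted p = 0.180). Over these 10 samples N4bp1 and Trp73 had the patterns closest to Htr3a among 9394 genes, with root-mean-square differences of 0.21 and 0.23 on the log2 scale after centring. The SD of Htr3a itself was 0.80.

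Among the Gs-coupled receptors, Htr4, which promotes excitability of pyramidal cells, stood at 0.0581, 0.0404, 0.108 and 0.133 in MRL/lpr. In Fn14koMRL it was 0.0102, 0.0112, 0.01 and 0.0124, at or near the floor of 1% of the channel median. In MRL/MpJ it was 0.01, 0.122, 0.01 and 0.0974 and not well above background in any sample. MRL/lpr lay above Fn14koMRL in all 4 samples, of which replicates 3 and 4 were not well above background and replicate 4 lies below its negative controls. The log2 fold change was 2.81 ± 0.87 (limma adjusted p = 0.0716, exact permutation p = 0.0286) and 2.21 ± 0.89 (limma adjusted p = 0.171) with 10 samples. With the negative-control background it was 1.45 (limma adjusted p = 0.156), and 3.23 (adjusted p = 0.00170) with 10 samples. Quantile normalization gave 0.32 (limma adjusted p = 0.384), the processed signal 2.87 (adjusted p = 0.0272), and array as a random block an adjusted p of 0.316. MRL/lpr and MRL/MpJ overlapped.

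Htr6, a receptor found almost exclusively in brain, gave the widest spread. Its level was 0.0167, 0.0222, 1.64 and 3.44 in MRL/lpr, 0.0152, 0.0260, 0.0201 and 0.0259 in Fn14koMRL and 0.0303, 0.156, 0.0319 and 0.117 in MRL/MpJ. The readings of MRL/lpr replicates 3 and 4 stand far above the other 10 samples. They rest on 1 of 2 probes, which read 3.19 and 6.65 there, while the other read 0.0807 and 0.237. MRL/lpr against MRL/MpJ gave 1.72 ± 1.42 (limma adjusted p = 0.659) with 12 samples and −1.59 ± 0.47 (adjusted p = 0.0404) with 10, so the direction turned with the array. With the negative-control background and 10 samples it was 0.46 (limma adjusted p = 0.786). Fn14koMRL against MRL/MpJ gave −1.61 ± 1.42 (limma adjusted p = 0.444, exact permutation p = 0.0286) and −1.36 ± 0.38 (limma adjusted p = 0.0305) with 10 samples. It became 0.14 with the negative-control background and 10 samples, and −0.79 within Cy3. Cy5 readings of MRL/MpJ, and that of Fn14koMRL replicate 4, lie below their negative controls.

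Htr7, linked to circadian phase and to hippocampal excitability, was higher in Fn14koMRL than in MRL/MpJ in every one of their 4 samples. Its level was 0.205, 0.167, 0.207 and 0.203 in Fn14koMRL, 0.132, 0.159, 0.107 and 0.135 in MRL/MpJ and 0.105, 0.129, 0.139 and 0.262 in MRL/lpr. Against MRL/MpJ the log2 fold change was 0.56 ± 0.35 (limma adjusted p = 0.422, exact permutation p = 0.0286), and 0.81 ± 0.20 (limma adjusted p = 0.0156) with 10 samples. Within Cy3 the 10-sample difference was 0.84, while the median gene had −0.69. Both MRL/MpJ Cy5 readings were not well above background and lie below their negative controls. With the negative-control background the value was 2.44 (limma adjusted p = 0.543), and 3.51 (adjusted p = 0.193) with 10 samples. MRL/lpr against Fn14koMRL gave −0.39 ± 0.35 (limma adjusted p = 0.355) and −0.83 ± 0.24 (adjusted p = 0.0436) with 10 samples, and 0.19 with normexp background correction. With the negative-control background and 10 samples it was −0.87 (limma adjusted p = 0.995). The Htr7 probe well above background in 8 of 12 samples gave −0.94 with 12 samples, and the probe so in 0 of 12 gave 2.17. For Fn14koMRL against MRL/MpJ these probes gave 0.75 and −1.41.

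**Figure D2:**
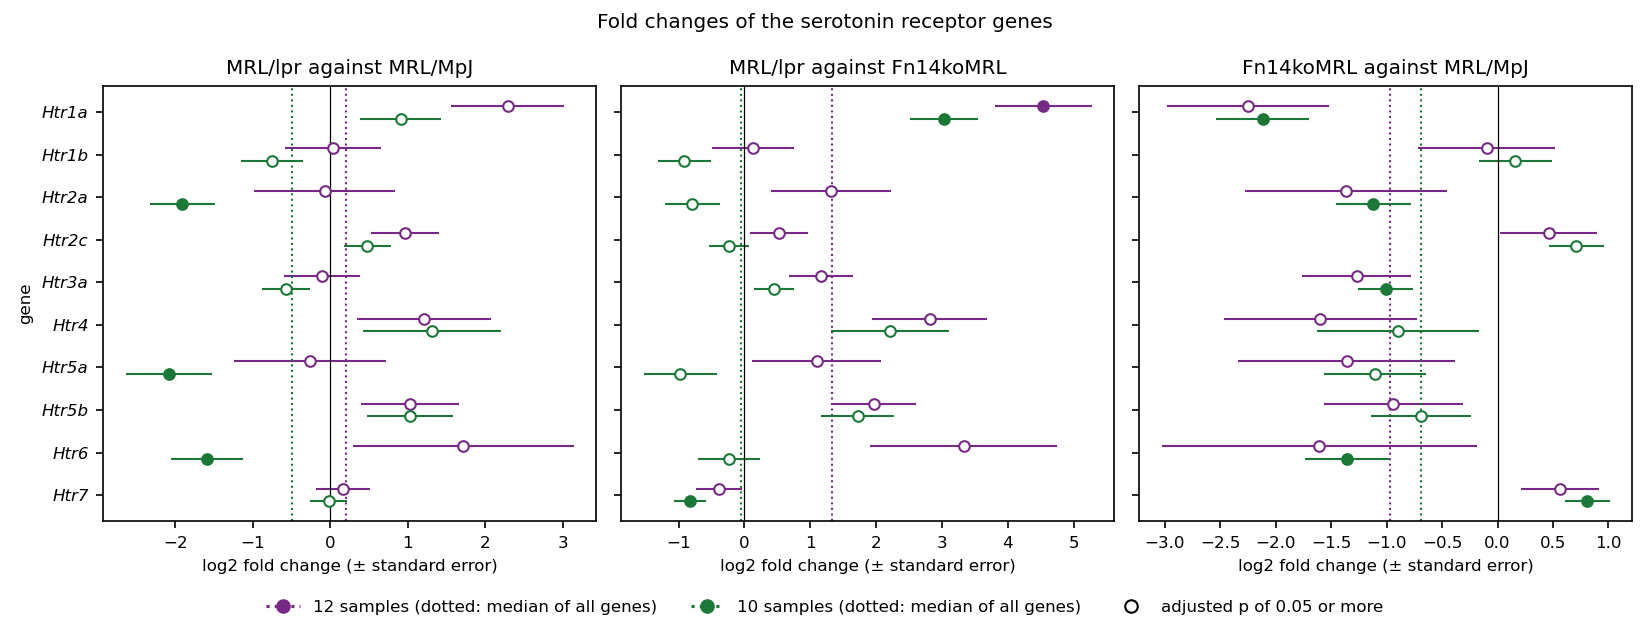
Log2 fold change with its standard error for the 10 receptors in the 3 comparisons, from 12 samples (purple) and from 10 samples (green), with filled symbols for an adjusted p under 0.05 and dotted lines at the median of all genes. Htr1a in MRL/lpr against Fn14koMRL is the one value filled in both fits, at 4.54 and 3.03, and Htr6 in MRL/lpr against MRL/MpJ lies on opposite sides of 0.

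The probes of a receptor did not always read alike. Of the 10 genes, 5 had 1 probe, 4 had 2 and Htr2c had 3, with GC contents of 35% to 55.0% and a median of 42.5%. One probe of Htr4 and one of Htr7 were well above background in 0 of 12 samples, and the other probe of these genes in 4 and 8. Sequences are printed, as the array files give them on build mm9, for probes that part the readings of a gene.

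The Htr6 probe behind the 2 high MRL/lpr readings lies at chr4:138617683-138617742 on the minus strand, within coding sequence. Capitals mark the codons of the conserved motif at the end of the last transmembrane segment. The Htr1b probe at chr9:81525015-81525074, minus strand, covers the same place in that receptor and was well above background in 1 of 12 samples, where the other Htr1b probe was in 8. Capitals mark the last 3 codons of its motif. The Htr2c probe at chrX:143629079-143629138, plus strand, ends with the stop codon, in capitals, and was well above background in 4 of 12 samples. Another Htr2c probe lies downstream of that stop codon and was so in 9 of 12.
Htr6: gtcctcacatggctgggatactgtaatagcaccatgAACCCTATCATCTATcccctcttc
Htr1b: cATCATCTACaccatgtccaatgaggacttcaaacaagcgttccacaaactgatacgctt
Htr2c: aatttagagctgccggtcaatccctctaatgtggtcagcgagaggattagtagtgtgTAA

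The remaining serotonin genes gave no call with 12 samples. None of the 4 other receptor genes on the list (Htr1d, Htr1f, Htr2b, Htr3b) passed in any of the 3 comparisons with 12 or with 10 samples by limma. Unadjusted, 0 did so in each comparison with 12 samples and 3, 0 and 2 with 10, beside 34.8%, 18.6% and 44.0% of all genes, and Htr2b and Htr3b were not well above background in any sample. Their median log2 fold changes with 12 samples were 0.15, 1.55 and −1.43, in the order MRL/lpr against MRL/MpJ, MRL/lpr against Fn14koMRL and Fn14koMRL against MRL/MpJ. Of 11 genes of serotonin synthesis, transport and breakdown, 0 passed with 12 samples by limma and 2, 1 and 0 unadjusted. Unadjusted, 18.6%, 27.7% and 8.52% of all genes did so. The list had medians of 0.21, 1.40 and −0.71. The serotonin transporter Slc6a4 was not well above background in any sample. With 10 samples 11.4%, 8.54% and 13.9% of all genes passed in the 3 comparisons. Of the 11 genes, 1 rose and 2 passed as lower in MRL/lpr against MRL/MpJ, 1 rose against Fn14koMRL, and 1 rose and 1 passed as lower in Fn14koMRL against MRL/MpJ. Those passing as lower, named after their values were seen, were Slc22a3 and Tph2 in the former and Tph2 in the latter. Slc22a3 was well above background in no sample and Tph2 in no MRL/lpr sample, and their MRL/MpJ Cy5 readings, 0.245 and 0.109 for Slc22a3 and 0.232 and 0.171 for Tph2, lie below the negative controls. The gene that rose in MRL/lpr, also named after its values were seen, was Slc29a4, a low-affinity monoamine transporter abundant in choroid plexus. Its level was 2.16, 1.82, 0.576 and 0.764 in MRL/lpr, 0.882, 0.645, 0.408 and 0.589 in Fn14koMRL and 0.570, 0.585, 0.488 and 0.933 in MRL/MpJ. Its log2 fold change against MRL/MpJ was 0.88 (limma adjusted p = 0.267) with 12 samples and 1.83 (adjusted p = 0.000639) with 10.

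Calls of list genes are those of limma with 12 samples unless stated. Of all genes 2.59%, 6.01% and 0.142% passed with 12 samples, and 11.4%, 8.54% and 13.9% with 10. Unadjusted, 18.6%, 27.7% and 8.52% did so with 12 samples. With array as a random block 111, 56 and 0 of all genes were called in the 3 comparisons, and of the signalling genes named Rgs4 kept its call against MRL/MpJ but not against Fn14koMRL, and the others lost theirs. Downstream of the Gi/o-coupled receptors, 2 regulators of G-protein signalling were lower in MRL/lpr. Rgs4, which shortens Gi/o and Gq signals, stood at 1.21, 1.26, 0.763 and 0.531 in MRL/lpr, 2.25, 3.76, 4.05 and 3.95 in Fn14koMRL and 4.22, 4.61, 5.18 and 5.54 in MRL/MpJ. It fell by a log2 fold change of −2.46 ± 0.31 (limma adjusted p = 0.00122) against MRL/MpJ and −1.94 ± 0.31 (adjusted p = 0.00689) against Fn14koMRL. Rgs7 gave −1.28 (adjusted p = 0.0105) and −0.83 (adjusted p = 0.0499). These 2 of 11 Gi/o genes passed in both comparisons of MRL/lpr, and 0 in Fn14koMRL against MRL/MpJ (1 unadjusted), with medians of −0.15, −0.34 and −0.33. With 10 samples 1 rose and 3 fell, 1 rose and 2 fell, and 2 fell in these comparisons.

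Of 9 Gq-side genes, 0 passed in MRL/lpr against MRL/MpJ (1 unadjusted), 1 rose and 1 fell against Fn14koMRL, and 1 fell in Fn14koMRL against MRL/MpJ, with medians of −0.29, −0.09 and 0.01. Itpr1, a calcium release channel, gave −1.55 ± 0.39 (limma adjusted p = 0.0351) for MRL/lpr against Fn14koMRL, and −1.06 (adjusted p = 0.118) with 10 samples. With 10 samples 2 fell, 1 rose and 1 fell, and 3 rose and 1 fell.

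Of 12 Gs-side genes, 2 fell in MRL/lpr against MRL/MpJ, 1 rose and 2 fell against Fn14koMRL, and 0 passed in Fn14koMRL against MRL/MpJ (3 unadjusted), with medians of −0.09, −0.26 and 0.16. Rapgef4, a sensor of cyclic AMP, gave −1.65 ± 0.31 (limma adjusted p = 0.0143) against MRL/MpJ and −1.17 ± 0.31 (adjusted p = 0.0436) against Fn14koMRL. The adenylyl cyclase Adcy2 gave −1.11 (adjusted p = 0.0344) against MRL/MpJ, and Adcy5, abundant in striatum, −1.52 (adjusted p = 0.0174) against Fn14koMRL. Prkaca, a catalytic subunit of protein kinase A, gave 1.72 (adjusted p = 0.0332) against Fn14koMRL, and 0.85 (adjusted p = 0.0811) with 10 samples. With 10 samples 2 fell, 3 fell, and 3 rose and 1 fell. Of 9 receptor partners and adaptors, 0 passed with 12 samples by limma and 2, 4 and 2 unadjusted, with medians of −0.24, 0.35 and −0.23, and 1 rose with 10 samples, in Fn14koMRL against MRL/MpJ.

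Markers of brain regions that carry serotonin receptors differed between the strains in the same samples. With array as a random block Lct, Lamp5 and Cux2 kept their calls in both comparisons of MRL/lpr, and Dcn, Pvalb and Npy against MRL/MpJ, while the other markers named lost theirs. Of 8 dentate gyrus genes, 3 rose in MRL/lpr against MRL/MpJ and 4 against Fn14koMRL, and 0 passed in Fn14koMRL against MRL/MpJ (1 unadjusted), with medians of 1.99, 2.64 and −1.03. Their summed level was 2.27, 1.78, 7.06 and 8.77 in MRL/lpr, 0.459, 0.551, 0.566 and 0.612 in Fn14koMRL and 0.556, 1.57, 0.571 and 1.19 in MRL/MpJ. A sum also adds the channel offset of each gene, largest in MRL/lpr replicates 3 and 4 and MRL/MpJ replicates 2 and 4. Htr1a, like this sum, was highest in MRL/lpr replicates 3 and 4, the samples of the dim array. So were Htr2a, Htr2c and Htr6, and the summed levels of the habenula and thalamus list and of the raphe list. Lct stood at 1.04, 0.816, 1.25 and 0.904 in MRL/lpr and between 0.0806 and 0.160 in the other 8 samples. It gave log2 fold changes of 2.71 ± 0.28 (limma adjusted p = 0.000224) against MRL/MpJ and 3.19 ± 0.28 (adjusted p = 0.000167) against Fn14koMRL. Dsp passed as higher in both (limma adjusted p = 0.0259 and 0.00617), with no fold given. Its readings were 0.01, 0.01, 0.01 and 0.0131 in Fn14koMRL, at or near the floor. In MRL/MpJ they were 0.01, 0.115, 0.01 and 0.0778, the Cy5 readings below the negative controls. Prox1 gave 3.36 (adjusted p = 0.0425) against MRL/MpJ and 2.04 (adjusted p = 0.0219) with 10 samples, and C1ql2 2.89 (adjusted p = 0.00810) against Fn14koMRL. With 10 samples 4 rose in each comparison of MRL/lpr. Trpc6 gave the highest mean reading of the list over the 12 samples, though readings of different probes are not on 1 scale of abundance, and each of the 8 was well above background in at least 1 sample. The part of these regional differences in the receptor values was not tested.

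Genes of the pyramidal fields rose in part. Of 7 CA1 genes, 2 rose in each comparison of MRL/lpr and 0 passed in Fn14koMRL against MRL/MpJ (3 unadjusted), with medians of 1.04, 1.19 and 0.29. Dcn gave 2.17 (limma adjusted p = 0.00120) against MRL/MpJ and 1.56 (adjusted p = 0.00988) against Fn14koMRL, Pou3f1 1.48 (adjusted p = 0.0480) against the former and Fibcd1 4.42 (adjusted p = 0.0156) against the latter. With 10 samples 1 rose and 1 fell, 2 rose, and 3 rose and 1 fell. Pou3f1 then gave 1.14 (limma adjusted p = 0.0739) and Fibcd1 2.51 (adjusted p = 0.00331). Fibcd1 was well above background in 2 of 4 Fn14koMRL samples and read at most 0.0200 in that strain. Wfs1, whose mean reading over the 12 samples was the highest of the CA1 list but not its reading in each sample, was 4.77, 6.81, 0.875 and 1.07 in MRL/lpr and between 3.43 and 6.93 in the other strains. Of 8 CA2 and CA3 genes, 2 rose in each comparison of MRL/lpr and 0 passed in the third (3 unadjusted), with medians of 0.76, 0.72 and 0.01. Bok gave 1.18 (limma adjusted p = 0.0138) and Cpne4 1.52 (adjusted p = 0.0265) against MRL/MpJ. Against Fn14koMRL, Amigo2 gave 2.76 (limma adjusted p = 0.0267) and Cpne4 1.40 (adjusted p = 0.0274). The latter became 0.89 (limma adjusted p = 0.113) with 10 samples, where 5, 2 and 2 genes rose. Amigo2 was well above background in 2 of 4 samples of MRL/lpr and 2 of 4 of Fn14koMRL. Its reading in Fn14koMRL replicate 3 was 0.01, the floor.

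Among genes of cortex and striatum, which adjoin the hippocampus or lie near it, the calls of MRL/lpr with 12 samples were lower. Of 12 cortical layer genes, 4 fell against MRL/MpJ and 3 against Fn14koMRL, with medians of 0.04, 0.19 and −0.72, and 0 passed in the third comparison (4 unadjusted). Lamp5 gave −3.23 (limma adjusted p = 3.98e-05) and −2.53 (adjusted p = 0.000332), and Cux2 −2.84 (adjusted p = 7.90e-05) and −2.09 (adjusted p = 0.000912). Rorb gave −1.87 (adjusted p = 0.0145) against MRL/MpJ and Cux1 −1.28 (adjusted p = 0.0323) against Fn14koMRL, the latter turning to 0.62 under the methods' filter. Of 12 striatal genes, 1 fell against MRL/MpJ, 5 fell against Fn14koMRL and 0 passed in the third (7 unadjusted), with medians of −0.15, −0.84 and 0.86. Penk and Ppp1r1b gave −2.75 (limma adjusted p = 0.0114) and −1.85 (adjusted p = 0.0122) against Fn14koMRL, and Penk −1.81 (adjusted p = 0.00226) with 10 samples. With 10 samples 2 cortical genes rose and 4 fell in MRL/lpr against MRL/MpJ, 2 rose and 5 fell against Fn14koMRL, and 1 rose and 1 fell in Fn14koMRL against MRL/MpJ. Of the striatal genes 1 rose and 2 fell, 8 fell, and 7 rose.

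Interneuron genes were read, since the channel of the Htr3a subunit is found in the forebrain mainly on interneurons. Of 14, 3 fell in each comparison of MRL/lpr and 0 passed in the third (4 unadjusted), with medians of −1.10, −0.58 and −0.52. With 10 samples 4 fell, 1 rose and 3 fell, and 1 rose and 4 fell, the last in Fn14koMRL against MRL/MpJ. There the list had a median of −0.27, beside −0.69 for all genes, of which 13.9% passed. The part of these genes in the level of Htr3a was not tested. Pvalb gave −1.97 (limma adjusted p = 0.00278) and −1.24 (adjusted p = 0.0243), Vip −1.54 (adjusted p = 0.00616) and −1.30 (adjusted p = 0.0142), and Npy −2.53 (adjusted p = 0.00709) and −1.65 (adjusted p = 0.0380), against MRL/MpJ and Fn14koMRL. With 10 samples Npy gave −1.42 (limma adjusted p = 0.000115) and −0.79 (adjusted p = 0.00929), and Vip −1.02 (adjusted p = 0.00254) against MRL/MpJ. Cck gave the highest mean reading of the list, and the summed level of the list was 46.2, 59.5, 21.8 and 18.4 in MRL/lpr, 43.5, 64.2, 46.2 and 59.2 in Fn14koMRL and 55.1, 98.5, 62.4 and 86.9 in MRL/MpJ.

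Choroid plexus genes were also read, since Htr2c and Slc29a4 are expressed there. Of 14, 1 rose in MRL/lpr against MRL/MpJ, 8 rose against Fn14koMRL and 0 passed in the third comparison (0 unadjusted), with medians of 2.19, 2.88 and −0.89. With 10 samples 6 and 8 rose. Their summed level was 39.7, 12.3, 11.4 and 33.7 in MRL/lpr, 5.79, 1.32, 0.958 and 0.746 in Fn14koMRL and 1.32, 3.50, 1.10 and 2.51 in MRL/MpJ. These sums hold the channel offsets too. Ttr, the thyroxine carrier, with the highest mean reading of the list over the 12 samples, was 33.4, 10, 2.13 and 15.2 in MRL/lpr and at most 4.61 in the other 8 samples. It gave 3.33 (limma adjusted p = 0.0467) against MRL/MpJ, and 4.34 (adjusted p = 0.000461) with 10 samples. Against Fn14koMRL, Otx2 gave 5.49 (adjusted p = 0.0177) and Kcnj13 3.50 (adjusted p = 0.0228). With 10 samples these were 2.92 (limma adjusted p = 0.0102) and 1.90 (adjusted p = 0.0348). Kcne2 passed as higher (limma adjusted p = 0.0246, and 0.0205 with 10 samples), with no fold given, since its probe was well above background in 1 of 4 Fn14koMRL samples. Otx2 read 5.07 and 10.7 on the dim array and 0.319 and 0.177 in the other two MRL/lpr mice. The part of choroid plexus genes in the levels of Htr2c and Slc29a4 was not tested.

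**Figure D3:**
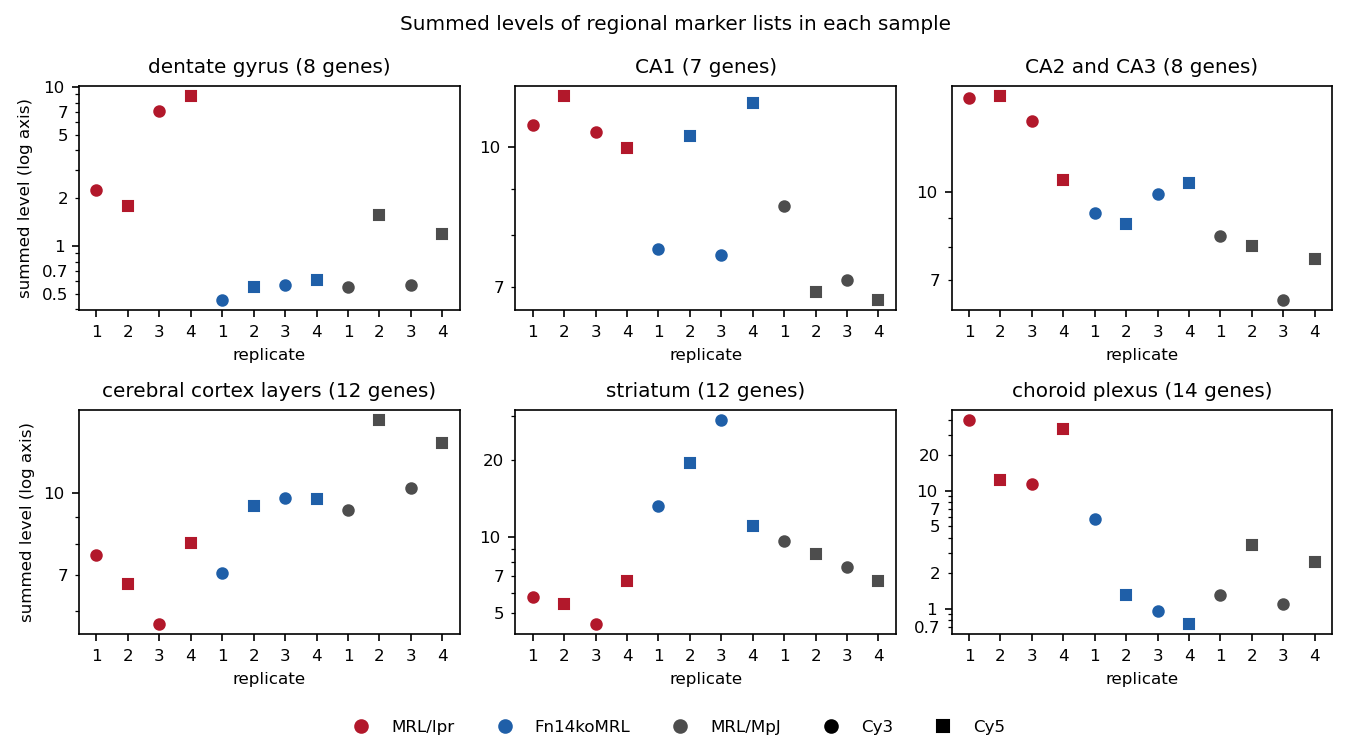
Summed level of 6 lists of regional markers in each sample, in units of the channel median on a log axis, by replicate within strain (colour), with circles for Cy3 and squares for Cy5. The dentate gyrus list lies between 1.78 and 8.77 in MRL/lpr and at or below 0.612 in Fn14koMRL, and the choroid plexus list at 11.4 or more in MRL/lpr and at or below 5.79 in the other samples.

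Genes of habenula and thalamus were called in both directions. Of 12 habenula and thalamus genes, 1 rose and 1 fell in MRL/lpr against MRL/MpJ, 2 rose and 2 fell against Fn14koMRL and 0 passed in the third (1 unadjusted), with medians of 0.62, 1.26 and −0.56. Tac2 gave −2.12 (limma adjusted p = 0.00774) and −1.62 (adjusted p = 0.0224) against MRL/MpJ and Fn14koMRL, and Rora −1.15 (adjusted p = 0.0466) against Fn14koMRL. Lhx9 passed as higher in both (limma adjusted p = 0.0357 and 0.00948), with no fold given, since its probe was well above background in 0 of 4 MRL/MpJ and 1 of 4 Fn14koMRL samples. With 10 samples 2 rose and 1 fell, 2 rose and 2 fell, and 1 fell. Of 10 hypothalamic genes, 1 fell in both comparisons of MRL/lpr with 12 samples, Cartpt, at −1.75 (limma adjusted p = 0.0341) and −2.09 (adjusted p = 0.0130), with list medians of 0.16, −0.85 and 0.69. With 10 samples 2 fell in both, Cartpt and Pomc, the latter at −1.04 (limma adjusted p = 0.0496) and −1.28 (adjusted p = 0.0217) and named after its values were seen. Of 7 genes of raphe serotonin neurons, 0 passed with 12 samples by limma and 0, 2 and 0 unadjusted, with medians of 0.52, 1.59 and −0.98. With 10 samples Tph2 passed as lower in MRL/lpr and in Fn14koMRL against MRL/MpJ, on the readings given above.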

How the data were processed

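The authors hybridised Cy3- and Cy5-labelled RNA of pairs of mice of 1 strain to Agilent arrays with 60-base probes, and deposited scanner files of 6 arrays, made with Feature Extraction 12.1. Their values are spot intensity, not normalized between arrays. From them the mean foreground minus the median local background was taken per channel, spots flagged as outliers were left out, and control spots were not tested. Intensity was divided by the channel median over spots with foreground at least 2 times background in all samples, all spots of a gene were then averaged over its probes, and log2 was taken above a floor of 1%. The number of arrays limits the precision.

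Strains were compared with limma 3.58.1 in R 4.3.3 (dye as covariate, moderated with a trend, Benjamini-Hochberg over all genes, threshold 0.05), after a test on simulated data, and by two-sided exact permutation in scipy 1.17.1. The fit was repeated without the array of MRL/lpr replicates 3 and 4, scaled over the spots valid in the other 10 samples. Alternatives were the methods' filter, normexp with offset 50, quantile normalization, the processed signal, array as a random block, a replicate block, the methods' t-test, and leaving out each sample. A background from the negative controls was added after seeing the data.

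All 10 receptors are reported in all samples. A fold change is given where the adjusted p passed or the strains did not overlap, in either fit, with some exceptions. No fold is read for Htr5a, Slc22a3, Tph2, Kcne2, Lhx9 and Dsp. Their readings in a compared strain lay partly or wholly at the floor or were not well above background. Other genes whose fold is given, among them Htr1a, Htr4, Amigo2 and Fibcd1, had such readings in part too. Of each list up to 3 genes with the smallest adjusted p among those past the threshold are named, and some genes chosen this way are not reported here. Tnfrsf12a and Fas check the labels. Members and lists were chosen with earlier results of these data known. Probe coordinates are those of the array files.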

Additional observations from a re-analysis of the deposited data

Results flagged for a closer look

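Of 30 groups of 4 samples looked at, 10 receptors in 3 strains, 3 held a sample that stood far from its strain, and chance alone gives about 1 in 20. Htr1a was lowest in Fn14koMRL replicate 3, at 0.01, the floor, where its probe was not well above background. Htr3a was highest in MRL/lpr replicate 4, at 0.840, on the dim array. Htr7 was lowest in Fn14koMRL replicate 2, at 0.167.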

How the results depend on the processing

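Of 368 alternative values of the 16 receptor fold changes, 301 kept direction and side of the threshold, 26 passed where the reported value had not, 4 no longer passed and 37 turned direction. Of 1431 values of other single genes these numbers were 1000, 18, 400 and 13. The cause of these changes was not tested. Array as a random block, the replicate block and leaving out a mouse of the strain outside the comparison leave a receptor's fold change as it is. Only its error and p can change there. Of the 16 reported values only Htr1a in MRL/lpr against Fn14koMRL passed, so for the others keeping side means still not passing. The 301 are therefore no measure of robustness. The signal over background of the dim array and of the MRL/MpJ Cy5 channels limits each value of a dim receptor. Array and strain are nested, and 4 mice per strain, 2 to an array, limit the exact test.

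Genes called for MRL/lpr against MRL/MpJ, MRL/lpr against Fn14koMRL and Fn14koMRL against MRL/MpJ numbered 767, 1779 and 42. Without the dim array they were 3383, 2525 and 4111, and the share of higher calls moved from 32.1%, 77.0% and 9.52% to 42.5%, 62.4% and 42.4%. With the methods' filter the second count was 353 (55.5% higher), and without that array 2818 and 3785 were called in the first and last. Without the array the filter's share of higher calls was 44.8% in the second and 47.6% in the last. Normexp gave 1228 (42.5% higher) and 157 in the first and last, quantile normalization 357 (52.4% higher) and 0 in the second and last, and the processed signal 2423 (66.7% higher), 2746 and 26. Medians of all genes moved to 0.90, 1.72 and −0.76 with normexp, −0.05, −0.03 and −0.02 with quantile normalization, and 0.90, 1.42 and −0.23 with the processed signal. Array as a random block (correlation 0.568) gave 111, 56 (48.2% higher) and 0. The negative-control background, added after seeing the data, gave 624 (51.6% higher), 242 (66.9% higher) and 2, with medians of all genes of 0.24, 0.00 and 0.00. Without the dim array it gave 3473 (71.0% higher) in the first and 56 (26.8% higher) in the last. The methods' t-test called 2280, 2166 and 2316 unadjusted (18.4%, 37.2% and 33.1% higher) and 0, 0 and 4 adjusted. Leaving out each sample gave 220 (MRL/MpJ replicate 4) to 3874 (MRL/lpr replicate 2), 158 (Fn14koMRL replicate 4) to 20467 (MRL/lpr replicate 2), and 1 (Fn14koMRL replicate 2) to 221 (MRL/lpr replicate 3).

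With the replicate block 925, 1604 and 29 genes were called. The replicate numbers do not pair the samples: 7 of 12 same-number pairs correlated above 0.1 over 9343 genes, from −0.14 to 0.36, and 4 samples correlated best with their own number.

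The following log2 fold changes turned. For MRL/lpr against Fn14koMRL, Htr1b was −0.91 without the dim array, alone or with the methods' filter, −0.82 with quantile normalization, −0.28 with the processed signal, and −1.14 and −0.91 with the negative-control background (12 and 10 samples); leaving out 1 sample gave −0.30 to 0.59. Htr5a was not well above background in MRL/lpr, and no fold or direction is read from its fitted values, which were −0.97 without the array, −0.53 with quantile normalization, and −0.02 and −0.95 with the negative-control background. Htr5b was −0.03 with quantile normalization, Htr7 0.19 with normexp, and Cux1 0.62 with the methods' filter. Tnfrsf12a was −0.10 with quantile normalization and −0.28 with the negative-control background. Fas was −0.69 without the array, alone or with the filter, −0.83 with quantile normalization, and −1.31 and −0.82 with the negative-control background, and −0.30 to 0.89 leaving out 1 sample.

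For MRL/lpr against MRL/MpJ, Htr2a was 0.44 with normexp, 0.36 with quantile normalization, 0.43 with the processed signal, 1.44 and 0.46 with the negative-control background, 0.91 in the methods' t-test and −0.90 to 0.79 leaving out 1 sample. The fitted values of Htr5a, again not read as folds, were 0.82 with normexp, 2.02 with the processed signal, 0.14 in the methods' t-test and −0.93 to 0.63 leaving out 1 sample. Htr6 was −1.59 without the array and −1.72 with the methods' filter besides, and Fas 0.03 with normexp and 0.88 with the processed signal. For Fn14koMRL against MRL/MpJ the negative-control background turned Htr2a (0.35 and 1.41) and Fas (0.12 and 0.54), and with 10 samples Htr1a (0.17) and Htr6 (0.14). Without MRL/lpr replicate 2, Htr2c passed against MRL/MpJ (1.32, limma adjusted p = 0.0478), and Htr4 (3.38, adjusted p = 0.0105) and Htr5b (2.22, adjusted p = 0.0182) against Fn14koMRL; Htr5a had an adjusted p of 0.0394 on readings not well above background. Htr1a in MRL/lpr against Fn14koMRL stayed between 3.89 and 5.16 leaving out 1 sample.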
